A study of Brassica napus with 6 samples.

Results

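The genes described here are the 200 most abundant genes that were read mainly in flower bud in HZ62, a Brassica napus (oilseed rape) hybrid. They were chosen by measured values: the flower bud mean had to be at least 4 times both the silique mean and the seedling mean, and at least 1 read had to be found in a silique or seedling library. Of 80932 genes in the deposited normalized table, 3174 met these demands, and the 200 with the highest flower bud mean were kept. The difference between flower bud and the other tissues is therefore given as a description only, without a test. Values are the authors' normalized values, which are read counts scaled by TMM factors (trimmed mean of M values) and not divided by gene length.

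Polyadenylated RNA was sequenced from 3 tissues with 2 libraries each. Flower buds, written "flower bug" in the labels, were shorter than 2 mm, siliques (the seed pods) measured 3 to 5 cm, and seedlings were 2 weeks old. All samples carry the genotype label WT and came from plants kept at 22 °C during 16 h of light and at 18 °C during 8 h of darkness. The parents of the hybrid were not analysed here. Libraries held between 3973408 reads in seedling replicate 2 and 24110359 in seedling replicate 1, and 1 read was worth between 0.03765 and 0.2730 normalized units. Even counts made up between 82.1% and 89.3% of all counts above 0 in a library, so a count of 2 cannot be taken as 2 separate molecules. Intervals of read shares below cover counting error only and take each count as separate. Where a read pair gave 2 counts, they are too narrow. The labels do not state whether replicates are separate plants or pools. The p-values given here thus rest on a spread between libraries that may be technical.

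A flower bud forms sepals, petals, stamens and carpels. In Arabidopsis, MADS-domain transcription factors set the identity of these organs. In the anther, the tapetum is a secretory cell layer that feeds the developing microspores and delivers the lipids and proteins of the pollen wall, and genes of this layer are known there for strong and short-lived expression. None of these roles can be assigned to the genes below, because the identifiers come without gene names and the reference gene table held 0 of the 95143. For the same reason the labelled tissues could not be checked against their defining marker genes. In whole tissues, fewer cells of a type and less RNA per cell cannot be told apart.

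The 200 genes spanned a 15.8-fold range of level in flower bud, and both bud libraries gave nearly the same values. Their flower bud means ran between 48.84 and 771.2, with a median of 98.7, and 30 genes stood at 300 or more. In single flower bud libraries they had between 548 and 9724 reads, so counting error was small there. The log2 ratio of replicate 1 to replicate 2 had a median of -0.0388 and lay between -0.435 and 0.332, and 167 of the 200 genes were within 0.2 of 0. Together they took 3.00% of all reads in flower bud replicate 1 (Wilson 95% interval 2.988 to 3.007) and 3.16% in replicate 2 (3.148 to 3.167). In the silique libraries the genes took 0.176% (0.1732 to 0.1779) and 0.172% (0.1699 to 0.1750). In seedling it was 0.165% (0.1637 to 0.1669) in replicate 1 and 0.0755% (0.07282 to 0.07823) in replicate 2. The flower bud shares lay close together, as did the silique shares, whereas the seedling shares stood far apart.

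**Figure D1:**
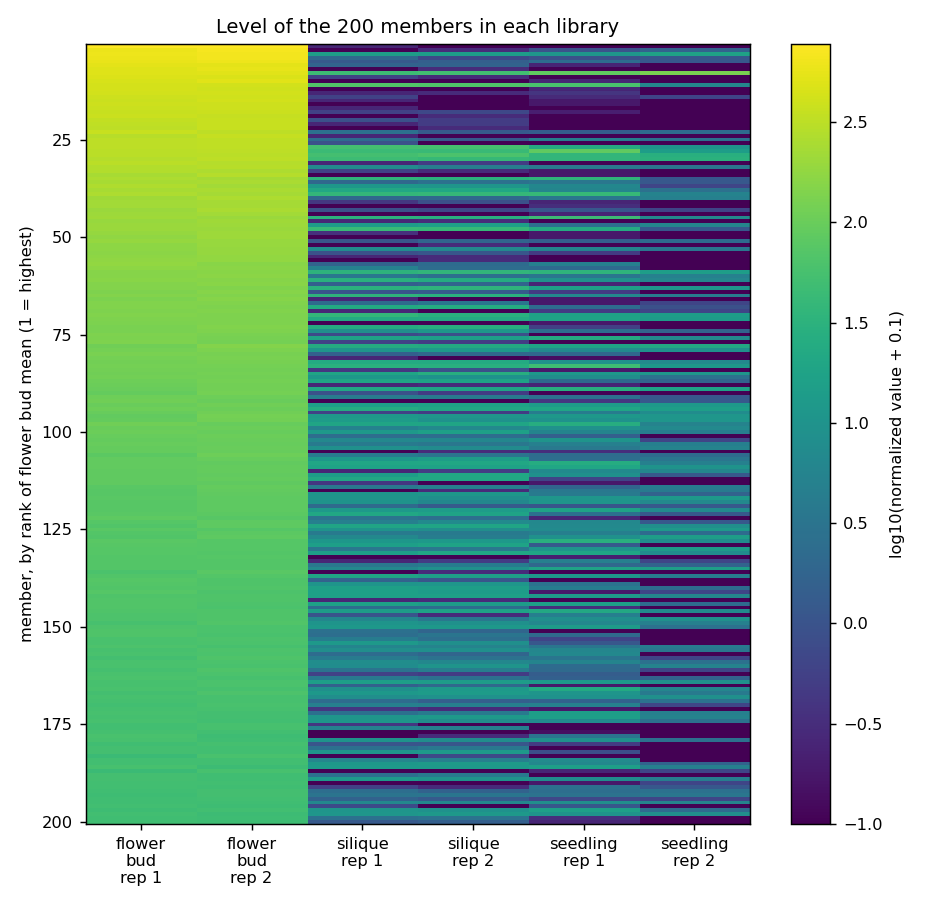
Normalized value of each of the 200 genes in each of the 6 libraries, drawn as log10(value + 0.1), with genes ordered by flower bud mean from the highest at the top to the lowest at the bottom. The flower bud columns look alike and run from 771.2 down to 48.84 in mean, while the silique and seedling columns mix genes at or near 0 with genes above 10 at every height of the plot.

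The gene with the most reads in flower bud was ZS11A04G005680 (chromosome A4, 4184009 to 4185983, minus strand, no overlap with another gene model). It had 768.5 and 773.8 in the flower bud libraries, 0.1623 and 0 in the silique libraries and 0 in both seedling libraries. All its silique signal came from 2 reads in replicate 1, beside 9576 and 9724 reads in the flower bud libraries. Against a floor of 3 counts over both seedling libraries, it was at least 7769.17-fold higher in flower bud than in seedling. Where a read pair gave 2 counts, the same floor in pairs lowers this bound to 3884.59-fold.

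ZS11C01G054830 (chromosome C1, 50550152 to 50553359, minus strand, no overlap) came next. It had 592.9 and 690.8 in flower bud, 0 and 0.1970 in silique, and 0.9036 and 1.638 in seedling. Both seedling libraries thus lay above both silique libraries, though all 4 were far under the flower bud level. In reads, these were 7388 and 8680 in flower bud, 0 and 2 in silique, and 24 and 6 in seedling.

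Among the next genes the level outside flower bud varied widely. On C1, the gene of rank 3 (1921439 to 1927688, plus strand) had 606 and 651 in flower bud, 14.6 and 13.8 in silique, and 10.9 and 17.5 in seedling, so it was clearly read in every library. The gene of rank 7, on C3 (8667959 to 8668584, minus strand), had 495 and 548 in flower bud, and its only signal elsewhere was 0.197 in silique replicate 2. Rank 8, on C4, had 500 and 511 in flower bud, 46.9 and 51.4 in silique, and 86.4 and 128 in seedling, the highest level of any of the 200 genes outside flower bud.

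Ranks by reads favour long genes, and a span is known only for the 133 genes that the deposited count table also lists. This span runs from the start to the end of the gene with any introns. Per kilobase of span, the flower bud mean of these 133 genes lay between 2.52 and 833, with a median of 31.1. The highest value belonged to the gene of rank 7, whose span is only 626 bp. ZS11A04G005680 stood at 390 and ZS11C01G054830 at 200 per kilobase of span.

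The genes formed a continuum from near absence outside flower bud to plain expression in every tissue. The ratio of the flower bud mean to the higher of the other means had a median of 18.2 and ran between 4.03 and 10468. It was under 8 in 74 genes, between 8 and 100 in 65 genes, and 100 or more in 61 genes, of which 28 reached 1000. These ratios describe what the choice of genes used. The lowest-ratio gene had 59.4 and 57.8 in flower bud, 8.44 and 12.2 in silique, and 23.0 and 6.01 in seedling, whereas the gene nearest below the fold demand, at a ratio of 3.995, had 59.4 and 48.2, 13.1 and 13.8, and 12.1 and 2.18 in the same order. By level, the last gene kept had 50.4 and 47.3 in flower bud, 1.14 and 1.38 in silique, and 0.151 and 0 in seedling. The next gene had 44.6 and 52.0 in flower bud, 8.44 and 9.65 in silique, and 0 in both seedling libraries.

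**Figure D2:**
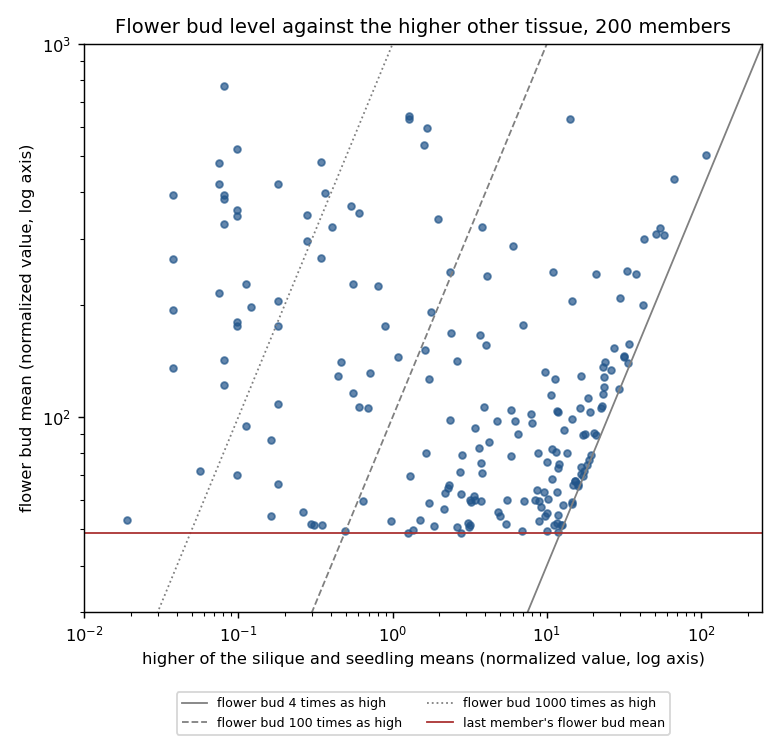
Flower bud mean of each of the 200 genes (vertical, log axis) against the higher of its silique and seedling means (horizontal, log axis), both as normalized values. The grey lines mark flower bud levels 4, 100 and 1000 times as high, and the red line marks the last gene's mean of 48.84. Points crowd along the 4-fold line at 10 and above, and a separate spread of points reaches to the left of 1.

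Sorted by the higher level outside flower bud, 55 genes stayed under 1, 71 lay between 1 and 10, and 74 stood at 10 or more. The near-absent genes included many of the most abundant ones: 13 of the 20 highest flower bud means and 27 of the 50 highest were in this class, whose median flower bud mean was 180. Their reads outside flower bud were few, with a median of 6 and a range of 1 to 46 over all 4 libraries. The choice of genes used the levels in all tissues, so the size and flower bud levels of the near-absent class are a description only. The demand for a read elsewhere also left out 51 genes with a flower bud mean of at least 48.84 that met the fold demands. Without any read outside flower bud, these would all have fallen in the near-absent class. The middle class had a median flower bud mean of 71.2 and a median of 144 reads outside. The class at 10 or more had a median flower bud mean of 95.6, a median ratio of 5.17 and a median of 702 reads outside. Spans followed the same order, with medians of 2030 bp (36 genes with a span) in the near-absent class, 3346 bp (46 genes) in the middle class and 3877 bp (51 genes) in the class at 10 or more, a difference that was not tested. The values are not divided by gene length, and whether this bears on the order of the spans was not tested.

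The demand for a read outside flower bud rests on few reads for part of the genes. At most 3 reads were found outside flower bud for 16 genes and at most 10 for 40 genes. A read was present in 1 of the 4 other libraries for 22 genes, in 2 for 26, in 3 for 37 and in all 4 for 115. The number of the 200 genes with a read was 176 and 174 in the silique libraries, 173 in seedling replicate 1 and 122 in seedling replicate 2, which was also the shallowest library. Another 51 genes had a flower bud mean of at least 48.84 and met the fold demands, but had no read elsewhere and were left out. Under the same rule, 23 genes were left out in this way for silique and 1 for seedling. The depth behind these numbers differs between tissues, so they are given side by side without a comparison.

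Silique against seedling is the contrast that the choice of genes did not use, although both levels were held down by the 4-fold demand on the flower bud level. Of the 133 genes in the count table, 33 were higher in silique than in seedling and 13 were lower (quasi-likelihood test of edgeR, adjusted p under 0.05 after Benjamini-Hochberg, and at least a 2-fold change). That was 24.8% and 9.77% of these genes, beside 16.2% higher and 18.0% lower among all 34296 genes tested. The remaining 87 did not pass. The filter on low counts, which could be met through flower bud reads alone, left in all 133 genes. A fit of the silique and seedling libraries alone kept 97 of them, of which 24 (24.7%) were higher and 9 (9.28%) lower, beside 15.5% and 18.5% of the 31640 genes it tested. The other 36 genes, tested only with the flower bud libraries in the fit, gave 8 of the higher and 3 of the lower calls, so the counts over all 133 are a description only. With whole reads recovered from the normalized table, which cover all 200 genes, 49 were higher and 22 lower. The background was 15.9% and 17.7% of 52918 genes. The flower bud libraries were in this fit too, and recovered reads of silique and seedling alone were not fitted. The counts over all 200 are therefore also a description only. All 133 genes of the count table had the same call with deposited counts and with recovered reads.

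The median log2 fold change of silique over seedling was 0.37 for the 133 genes and 0.02 for all genes tested, and 0.29 for the 200 genes with recovered reads. Limma on log2(normalized value + 1) called 44 of the 200 genes higher, a share near the 21.7% of all genes. It called 8 lower, beside 11.9% of all genes. On its scale the median of all genes was shifted by 0.30, and that of the 200 genes was 0.42. These numbers depend on seedling replicate 1. Without it, 52 of the 133 genes were higher and 10 lower, beside 20.3% and 16.1% of all genes, and their median log2 fold change was 1.78, beside a median of 0.20 for all genes. With recovered reads and without that library, 74 of the 200 genes were higher and 14 lower, beside 19.8% and 15.9% of all genes. Both of these fits hold 1 seedling library, which is assumed to vary like the libraries of the other tissues. Genes could pass the filter of these fits and of limma through flower bud values alone, so the counts are a description only. Without silique replicate 2, fewer genes were called lower, both among the 133 and among all genes tested. The median log2 fold change was then 0.39 for the 133 genes and 0.01 for all genes. Of the 46 called genes, 6 had under 10 reads in silique and seedling together.

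**Figure D3:**
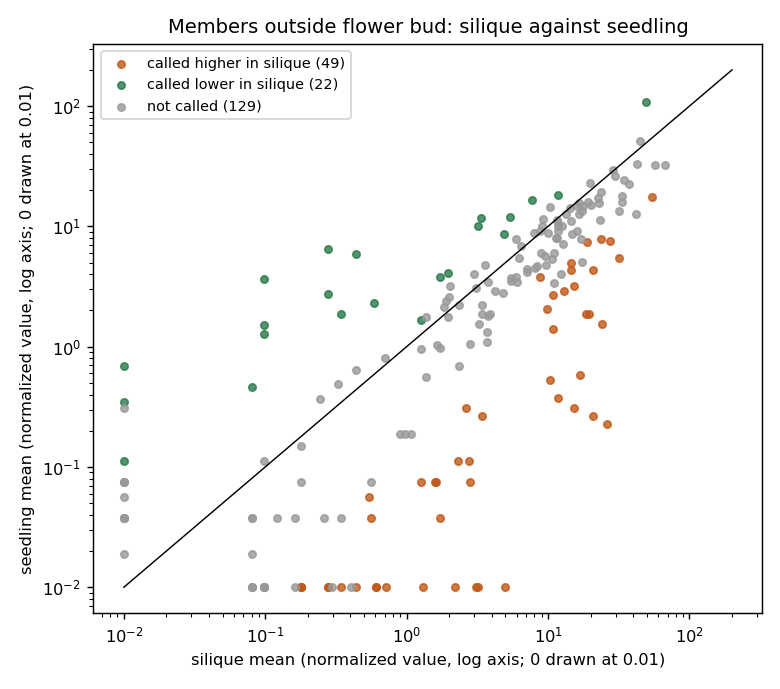
Silique mean (horizontal) against seedling mean (vertical) of the 200 genes as normalized values on log axes, with 0 drawn at 0.01. Colours give the edgeR call on recovered reads, 49 higher and 22 lower in silique and 129 not called, and the line marks equal means. Most genes called higher in silique lie well below the line, several of them with no read in seedling.

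The largest fitted rises in the count table were in genes without any seedling read, where the fitted size is no bound. ZS11A07G030460 (chromosome A7, 23200009 to 23204337, plus strand, no overlap) had 52.01 and 56.34 in flower bud, 5.192 and 4.728 in silique, and 0 in both seedling libraries. In reads, that was 64 and 48 in silique against 0 in seedling, so its silique mean was at least 49.97-fold higher, taking the floor of 3 counts over both seedling libraries (edgeR adjusted p = 1.43e-05). ZS11A07G034010 (chromosome A7, 25290116 to 25295052, minus strand, no overlap) had 64.85 and 60.48 in flower bud, 2.596 and 1.773 in silique, and 0 in both seedling libraries. Its silique mean was at least 22.01-fold higher by the same floor (edgeR adjusted p = 1.43e-04). Where a pair gave 2 counts, both bounds are 2 times lower, which is 24.99-fold for ZS11A07G030460. Of the 33 genes called higher, 11 had no seedling read. The filter could be met through flower bud reads alone, so this number is a description only. The share without a seedling read among all genes called higher was not computed.

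The largest fitted falls in the count table with at least 10 seedling reads were in genes with almost no silique reads. ZS11A07G039860 (chromosome A7, 28463585 to 28465536, minus strand, no overlap) had 76.72 and 88.65 in flower bud, 0 and 0.1970 in silique, and 3.464 and 3.822 in seedling. Its log2 fold change was -5.50 ± 0.55 (SE derived from the F statistic, edgeR adjusted p = 4.51e-05). ZS11A01G009420 (chromosome A1, 5163430 to 5169765, plus strand, no overlap) had 85.71 and 93.98 in flower bud, 0.1623 and 0.3940 in silique, and 7.078 and 6.006 in seedling, with a log2 fold change of -4.95 ± 0.36 (edgeR adjusted p = 5.87e-06). In both genes the silique and seedling libraries did not overlap. ZS11C01G054830, which had the second highest flower bud mean, was also lower in silique, by a log2 fold change of -3.73 ± 0.79 (edgeR adjusted p = 0.00366). For ZS11A04G005680 the change was 3.28 ± 1.87 and did not pass (edgeR adjusted p = 0.186), since it rests on 2 reads.

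Of the 68 genes with a silique mean of at least 10, recovered reads called 21 (30.9%) higher in silique than in seedling, beside 20.2% of all 21966 tested genes at that level. A minimum set on silique favours a higher call in both sets. The larger set was not held to the 4-fold demand, so the shares are a description only. On A8, the gene of rank 73 had 126 and 142 in flower bud, 24.7 and 27.4 in silique, and 0.452 and 0 in seedling. The gene of rank 141, on A3, had 16.4 and 13.99 in silique and 0.0753 and 0.546 in seedling. On C9, the gene of rank 112 had 21.1 and 20.5 in silique and 0.527 and 0 in seedling. These 3 genes were read in flower bud and silique and almost not in seedling, with log2 fold changes of 5.71, 6.41 and 5.17 in the order given. Smaller rises were more common, as in the gene of rank 27 on C4, with 52.4 and 55.6 in silique and 24.6 and 10.4 in seedling (log2 fold change 1.19 ± 0.31, edgeR adjusted p = 0.0104).

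Of the 41 genes with a seedling mean of at least 10, 6 (14.6%) were lower in silique than in seedling, beside 25.6% of all 18962 tested genes at that level. Here the minimum set on seedling favours a lower call in both sets. Again the larger set was not held to the 4-fold demand, so the shares are a description only. The gene of rank 8 on C4, whose values stand above, had the highest flower bud mean of these 6 genes, with a log2 fold change of -1.44 ± 0.23 (edgeR adjusted p = 8.25e-04). The gene of rank 130, on A10, had 3.41 and 3.35 in silique and 10.5 and 13.1 in seedling, and that of rank 135, on A6, had 6.17 and 9.26 in silique and 17.9 and 15.3 in seedling. In these 3 genes the silique libraries lay below both seedling libraries. On C3, the gene of rank 128 had 11.2 and 12.2 in silique and 28.9 and 7.64 in seedling, so the libraries overlapped and its call (log2 fold change -1.15 ± 0.40, edgeR adjusted p = 0.0399) was lost without seedling replicate 1 (log2 fold change 0.30).

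The seedling libraries stood far apart in part of these genes. The summed value of the 200 genes was 1500 in seedling replicate 1 and 818.8 in replicate 2, against 1781 and 1760 in the silique libraries. Over all listed genes the sum was lower in seedling replicate 1, at 907764 against 1084797. Other genes with a flower bud mean of at least 48.84 summed to 383917 and 503985. The most abundant silique-preferred genes summed to 1476 and 1299. Of the 66 genes with a seedling mean of at least 5, 54 were higher in replicate 1, as were 14700 of 27808 listed genes with such a mean and 2936 of 4297 other genes with a flower bud mean of at least 48.84. Among the 66 genes, 14 (21.2%) were at least 4 times as high there. None was 4 times as high in replicate 2. Over all listed genes with such a mean, 0.608% of 27808 were at least 4 times as high in replicate 1 and 0.0971% in replicate 2. Among other genes with a flower bud mean of at least 48.84, 1.37% of 4297 were at least 4 times as high in replicate 1, and among the 200 most abundant silique-preferred genes 5 of 78 (6.41%) were. These shares describe 1 pair of libraries and were not tested.

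The largest gap was in the gene of rank 35, on A7. It had 256 and 235 in flower bud, then 34.4 and 31.9 in silique, but 34.5 in seedling replicate 1 and 1.09 in replicate 2. Likewise the gene of rank 48, on A9, had 200 and 199 in flower bud, then 43.8 and 40.2 in silique, but 24.5 and 1.09 in seedling. On C1, the gene of rank 11 had 440 and 427 in flower bud, then 68.5 and 64.8 in silique, but 59.3 and 6.01 in seedling. In all 3 genes seedling replicate 2 lay far below both silique libraries and below seedling replicate 1, while the flower bud libraries and the silique libraries each lay close together.

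The 14 genes lay on both subgenomes, 6 on A and 8 on C, and their flower bud mean was between 4.06 and 15.7 times the higher of the other means. With all 6 libraries none of them was called in silique against seedling. They were picked for a gap between the seedling libraries, which widens their spread and works against a call. The missing calls thus do not show equal levels in the tissues. Their summed value was 454 in seedling replicate 1 and 65.5 in replicate 2. Over the whole table, 169 genes with a seedling mean of at least 5 were 4 times as high in seedling replicate 1, and 100 of these (59.2%) had their highest mean in flower bud, compared with 40.9% of all genes with such a seedling mean. Only 12 (7.10%) had it in seedling, compared with 33.7%. What sets the seedling libraries apart was not tested.

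**Figure D4:**
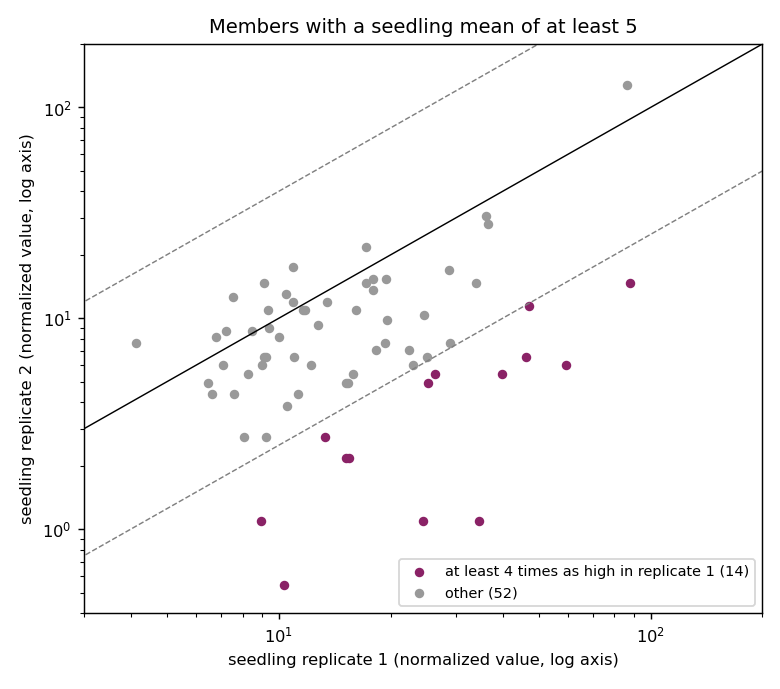
Seedling replicate 1 (horizontal) against seedling replicate 2 (vertical) for the 66 genes with a seedling mean of at least 5, as normalized values on log axes. The solid line marks equal values and the dashed lines mark 4-fold differences. The 14 coloured genes lie at 4-fold or more toward replicate 1, and none lies beyond the other dashed line.

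The genes came from all 19 chromosomes and in equal number from both subgenomes. Of the subgenomes of this allotetraploid, A derives from the lineage of Brassica rapa and C from that of Brassica oleracea. On A chromosomes lay 100 of the 200 genes. A genes made up 44.5% of all listed genes and 46.8% of the 3174 genes that met the demands. Among the 4592 genes with a flower bud mean of at least 48.84, the share of A genes was 47.1%. All 3 sets contain the 200 genes, which are the full result of a cut by rank. The shares are therefore a description only and were not tested. The classes by level outside flower bud were split alike, with 27 A genes of 55, 35 of 71 and 38 of 74. By chromosome, the number lay between 4 on A8 and 19 on A3, or between 1.43 per 1000 listed genes on A8 and 3.91 on A1. As a share of the genes with a flower bud mean of at least 48.84, it ranged from 2.16% on A8 to 6.49% on A10. With so few genes per chromosome these differences were not tested.

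**Figure D5:**
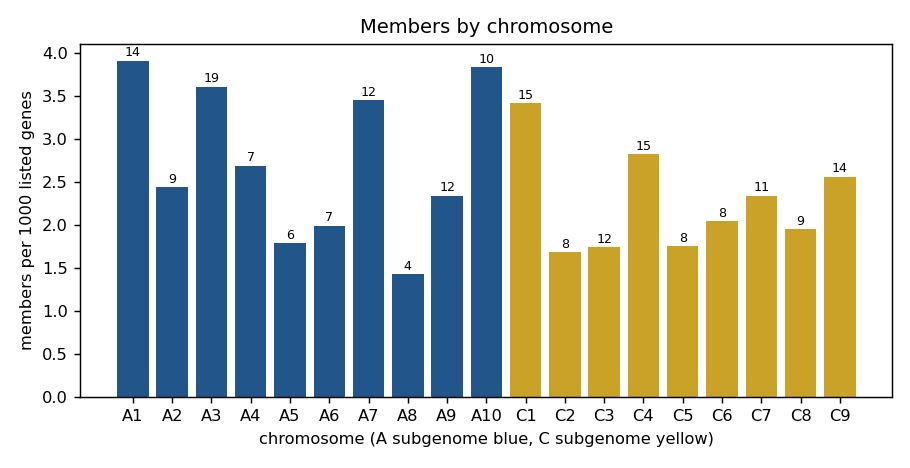
Number of the 200 genes per 1000 listed genes on each chromosome, with the number of genes printed above each bar and bars starting at 0. A8 is lowest at 1.43 with 4 genes, A1 highest at 3.91 with 14 genes, and bars of both subgenomes cover much the same range.

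No 2 of the 200 genes were direct neighbours among the 80932 listed genes. How many neighbours a random list of 200 would hold was not computed, so this is a description only. A single pair lay within 3 listed genes of each other. This pair is on the plus strand of A3 with 1 listed gene between, at 24850567 to 24858905 and at 24865100 to 24865519, which leaves 6194 bp between them. They differed in profile. The first had 76.1 and 88.0 in flower bud, 10.2 and 11.4 in silique, and 3.77 and 1.64 in seedling. The other had 192 and 217 in flower bud, 0.1623 and 0.197 in silique, and 0 in both seedling libraries. Of 399 direct neighbours of the 200 genes, 45 (11.3%) also had a flower bud mean at least 4 times both other means, as did 8091 of all 80932 listed genes.

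The spans of the 133 genes in the count table had a median of 3288 bp, between 420 and 26657 bp. All 51324 listed genes with a span had a median of 2286 bp, but the 2935 genes with a flower bud mean of at least 48.84 had one of 3433 bp. Genes of like flower bud level, whatever their other tissues, thus had spans as long as these. Of the 133, 75 lay on the plus strand and 58 on the minus strand, and 23 overlapped another gene model, so that their levels are uncertain because the strand setting of the counting is not given in the sources used here.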

How the data were processed

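RNA was measured in 6 libraries of 3 tissues. The submitters' processing notes name HISAT2, SAMtools, GATK, featureCounts and edgeR, without version or role, and the genome build is not given in the sources used here. Per the file headers, the deposited table of 65535 genes holds whole-number counts. It lists 133 of the 200 genes. The deposited normalized table holds a signal that the authors scaled with TMM factors, per the name of the file. In each library 100% of its values were whole multiples of 1 read within 0.05 reads, and recovered reads equalled the deposited counts in 100% of shared genes.

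Genes and lists were chosen with earlier results of these data known. Counts were tested with edgeR 4.0.16 in R 4.3.3 (TMM factors, filterByExpr with a minimum count of 10, quasi-likelihood test, all 6 libraries in 1 fit, 3 residual degrees of freedom). Recovered reads were tested likewise, and the normalized values with limma 3.58.1 on log2(value + 1), keeping genes at 1 or more in at least 2 libraries. DESeq2 1.42.0 served as an alternative, and each test was tested on simulated data. A gene was called at an adjusted p under 0.05 and a log2 fold change of at least 1. Coordinates are those of the count table, counted from 1. Named genes are the 2 with the highest flower bud mean and, of those called in silique against seedling with 10 or more reads in the tissue where they were higher and libraries that did not overlap, the 2 largest rises and the 2 largest falls. Other genes were picked after their values were seen and are given by rank. Classes at 1 and 10, the seedling minimum of 5 and the 4-fold limit between replicates were set after the data were examined. Python 3.11.15, pandas 2.3.3 and SciPy 1.17.1 were used.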

Additional observations from a re-analysis of the deposited data

How the results depend on the processing

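Under other factors, filters, thresholds and tools, 24 to 37 genes of the count table were called higher in silique than in seedling, beside 33. The 24 came from the fit of silique and seedling alone, which tested 97. The 37 came from adjusted p alone, which called 7855 of all 34296 genes higher. Limma gave 44 and recovered reads 49, but of 200 genes, so these counts cannot be set against 33. With limma the share was near that of all genes. None of the 6 named genes changed its call or turned its direction in 89 recalculations. However, ZS11A04G005680, which was not called, had a log2 fold change of 0.00 without silique replicate 1. Leaving out 1 library gave 29 to 52 higher and 7 to 18 lower genes, with a median log2 fold change between 0.12 and 1.78, and the extremes of 52 and 1.78 came without seedling replicate 1. The 13 lower genes became 8 with limma and 22 with recovered reads, which both cover 200 genes. With recovered reads, leaving out a seedling replicate turned 49 higher genes to 49 or 74 and 22 lower genes to 14 or 32. Counts that were halved and rounded up, an alternative chosen after seeing the data, gave 28 higher and 14 lower genes of the 133. Of all 30965 genes tested there, 5138 were higher and 5792 lower. A replicate block gave 33 higher and 12 lower genes, beside 5336 and 5751 of all 34296 tested. Same-numbered libraries did not deviate together, as the correlations of their deviations lay between -0.0266 and 0.00383. Whether they were collected or prepared together cannot be told from these values.

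The median ratio of 18.2 became 14.3 with a pseudocount of 1 and 15.8 with TMM factors computed from the recovered reads. The share of flower bud reads, 3.08% on average, was 2.42% for 100 genes and 3.77% for 400. Genes beside another were 0 of 200, 2 with up to 3 listed genes between, and 4 of 400. Leaving out 1 library kept 184 to 193 of the 200 genes, and dropping the demand for a read elsewhere kept 158. Seedling replicate 2, where 1 read is worth 0.2730 units, limits what can be seen at low seedling levels.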
